A study of Homo sapiens with 16 samples.

Results

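GPX4, AIFM2, DHODH, GCH1 and COQ2 are 5 genes whose products limit ferroptosis, an iron-dependent form of cell death driven by the peroxidation of membrane lipids. They were taken by name from the deposited expression table, and all 5 carried values there, among 17552 genes with values, and passed the filter on low values, among 11260 tested genes. RNA was measured in HT-1080, an established human fibrosarcoma cell line that is widely used in ferroptosis research. Its 16 libraries form 8 groups of 2: cells with siRNAs against DCAF8 and LSH (siDCAF8+siLSH), cells overexpressing WDR76 (oeWDR76), cells with an siRNA against DCAF8 (siDCAF8) and cells with a control siRNA (siNS), each with erastin (10 µM for 24 h) and without it. Erastin blocks the cystine importer system xc- and so starves cells of glutathione. DCAF8 recruits substrates to cullin-RING E3 ubiquitin ligases built on CUL4 and DDB1, WDR76 has WD40 repeats and can take the same place, and LSH is the SNF2-family remodeler of nucleosomes whose gene is HELLS. All groups are 1 cell line, no empty-vector library accompanies oeWDR76, and how many siRNAs each target received is not stated in the labels. Separate cultures are not mentioned for the 2 libraries of a group, so p-values measure only the spread between these libraries, which may be technical.

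The 5 proteins belong to several lines of defence, of which some share coenzyme Q. GPX4 is a selenoprotein that reduces phospholipid hydroperoxides with glutathione as the electron donor. AIFM2 (also called FSP1) is a myristoylated flavoprotein that regenerates reduced coenzyme Q at the plasma membrane, where the quinol traps lipid radicals. DHODH sits in the inner mitochondrial membrane, oxidises dihydroorotate in pyrimidine synthesis and passes the electrons to coenzyme Q. COQ2 attaches the polyprenyl tail to 4-hydroxybenzoate and so makes the first membrane-bound intermediate of coenzyme Q. GCH1 catalyses the rate-limiting step of tetrahydrobiopterin synthesis, and tetrahydrobiopterin is itself a radical-trapping antioxidant.

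The promoters are shown because 3 of these genes, AIFM2, GPX4 and COQ2, differed with erastin in the comparisons below. RefSeq on GRCh38.p14 gave a promoter for 4 of the 5 genes (not GCH1), and each window holds the 250 bases before an annotated transcription start, read 5′ to 3′ on the gene's strand. Capitals mark the core of the antioxidant response element (TGACNNNGC, the motif bound by NRF2 with small MAF proteins) and the CCAAT box (CCAAT), on either strand. The AIFM2 window is chr10:70132826-70133075 on the minus strand, the GPX4 window, the most upstream of 3, is chr19:1103744-1103993 on the plus strand, and the COQ2 window is chr4:83284799-83285048 on the minus strand. By the gene coordinates deposited with the values, these genes start inside the printed windows, at 70132934 (AIFM2), 1103926 (GPX4) and 83284914 (COQ2). The last bases of each printed window thus lie inside the gene by those coordinates.
AIFM2: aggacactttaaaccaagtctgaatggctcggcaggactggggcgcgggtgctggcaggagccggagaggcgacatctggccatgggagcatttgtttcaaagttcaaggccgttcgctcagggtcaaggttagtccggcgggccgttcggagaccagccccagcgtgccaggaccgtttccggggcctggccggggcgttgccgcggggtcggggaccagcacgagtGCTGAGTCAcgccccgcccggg
GPX4: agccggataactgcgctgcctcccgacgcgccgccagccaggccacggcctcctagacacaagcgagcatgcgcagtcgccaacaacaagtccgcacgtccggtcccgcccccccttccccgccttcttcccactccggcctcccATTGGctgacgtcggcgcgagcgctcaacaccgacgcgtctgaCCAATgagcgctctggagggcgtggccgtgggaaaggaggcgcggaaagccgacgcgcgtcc
COQ2: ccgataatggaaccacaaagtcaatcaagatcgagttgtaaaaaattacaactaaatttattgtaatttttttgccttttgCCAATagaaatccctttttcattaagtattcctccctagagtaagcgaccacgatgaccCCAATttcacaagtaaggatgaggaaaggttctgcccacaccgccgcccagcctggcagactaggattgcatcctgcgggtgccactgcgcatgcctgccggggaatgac

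In the AIFM2 window the antioxidant response element core is written GCTGAGTCA, its reverse complement, and starts at position -22 from the RefSeq transcription start of that window. By the gene coordinates deposited with the values, it lies inside the gene and not upstream of it. This core stood in 10.9% of 35116 promoter windows of the same length, and in none of the GPX4, DHODH and COQ2 windows. CCAAT stood in 32.0% of all windows, with 2 matches each in the printed GPX4 and COQ2 windows and 1 in DHODH. In the printed GPX4 and COQ2 windows, the match nearer the 3′ end also lay inside the gene by the deposited coordinates. The GC box GGGCGG, in 42.6% of windows, stood on one strand or the other in all 4 genes, and the E-box CACGTG, in 6.35%, stood in DHODH alone among the 4. The amino acid response element core TGATGNAA (3.14% of windows), TATAAA (10.7%), the NRF1 site (5.08%) and the YY1 core AAGATGGC (1.36%) had no match in these windows. The COQ2 window was 45.6% G and C, less than most promoters (23.2% were lower), while the AIFM2 and GPX4 windows held 66.8% and 69.6% (71.7% and 78.3% were lower). These matches describe the letters only.

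The values are FPKM, that is fragments counted relative to transcript length and to all mapped fragments, so levels can be set side by side between genes. No counts or depths are in the deposited table, so the depth is unknown. The targeted genes checked the labels. WDR76 averaged 267 ± 0.445 FPKM in oeWDR76 and 3.21 ± 0.445 FPKM in siNS (SD, n = 2 each, as everywhere below), and DCAF8 averaged 12.0 ± 0.304 FPKM in siDCAF8 and 39.7 ± 1.08 FPKM in siNS. HELLS averaged 4.06 ± 0.0141 FPKM in siDCAF8+siLSH, against 7.14 ± 0.438 FPKM in siDCAF8 and 4.02 ± 0.0495 FPKM in siNS, and under erastin 2.24 ± 0.170 FPKM, against 5.87 ± 0.0283 FPKM in siDCAF8 and 3.49 ± 0.163 FPKM in siNS. The double knockdown was thus lower in HELLS than siDCAF8 in both conditions, and lower than siNS under erastin (log2 -0.47, adjusted p = 2.14e-05) but not without it (log2 0.01, adjusted p = 0.884). HELLS was also higher in oeWDR76 than in siNS, at 10.9 ± 0.537 FPKM without erastin and 10.9 ± 0.141 FPKM with it. Without erastin, WDR76 was higher than in siNS in siDCAF8 (5.16 ± 0.219 FPKM) and in siDCAF8+siLSH (7.61 ± 0.113 FPKM). All 8 mesenchymal markers were above 1 FPKM in every library (VIM 1273 to 2067 FPKM), and none of 4 measured epithelial markers reached a mean of 1 FPKM (summed 0.28 to 0.74 FPKM, with KRT5 at 0 in 14 libraries). Among markers of other cells, 2 of 4 leukocyte genes (summed 2.85 to 3.78 FPKM in oeWDR76 libraries and 1.81 to 3.24 FPKM in the others) and 1 of 3 endothelial genes (summed 1.05 to 4.35 FPKM over all libraries) reached a mean of 1 FPKM, and their part in the results was not tested. In bulk RNA, fewer cells that make a transcript and less of it per cell cannot be told apart. The 4 oeWDR76 libraries stood apart: relative to the mean over all libraries, levels rose with the GC content of the transcript by 0.19 to 0.23 log2 units per 10% GC there, against -0.16 to 0.03 in the other 12. Values after removal of each library's trend on GC content and transcript length are therefore given wherever they change a call or move a called value by over 1.5 times.

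GPX4 (gene 2879, chr19:1103926-1106789 on GRCh38, plus strand) was by far the highest of the 5 genes, with a mean of 150.2 FPKM over the 16 libraries. With erastin, its FPKM were 140.4 and 139 in siDCAF8+siLSH, 215 and 212 in oeWDR76, 155 and 148 in siDCAF8, and 144 and 135 in siNS. Without erastin, they were 108 and 104 in siDCAF8+siLSH, 188 and 187 in oeWDR76, 144 and 140.5 in siDCAF8, and 118 and 126 in siNS. The oeWDR76 libraries were the highest in both conditions and the untreated double knockdown the lowest, and the highest group mean was 2.01 times the lowest. In falling order the groups were oeWDR76/Erastin, oeWDR76, siDCAF8/Erastin, siDCAF8, siDCAF8+siLSH/Erastin, siNS/Erastin, siNS and siDCAF8+siLSH, and the neighbours closer than the larger of their SDs were siDCAF8 with siDCAF8+siLSH/Erastin and the last of these with siNS/Erastin.

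AIFM2 (gene 84883, chr10:70111921-70132934, minus strand) had a mean of 9.49 FPKM. With erastin, its FPKM were 8.88 and 7.95 in siDCAF8+siLSH, 16.2 and 14.8 in oeWDR76, 7.49 and 7.81 in siDCAF8, and 10.1 and 10.7 in siNS. Without erastin, they were 5.79 and 6.04 in siDCAF8+siLSH, 13.6 and 13.6 in oeWDR76, 5.95 and 5.75 in siDCAF8, and 8.49 and 8.75 in siNS. In all 4 genotypes both erastin libraries lay above both untreated ones, and the 2 knockdowns of DCAF8 lay below siNS in each condition. Group means spanned 1.27 on the log2 scale. In falling order the groups were oeWDR76/Erastin, oeWDR76, siNS/Erastin, siNS, siDCAF8+siLSH/Erastin, siDCAF8/Erastin, siDCAF8+siLSH and siDCAF8, and the neighbours within the larger SD were siNS with siDCAF8+siLSH/Erastin and siDCAF8+siLSH with siDCAF8. AIFM2 shares 11 exonic bases with a gene on the opposite strand, and the counting is not stated to use strand.

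DHODH (gene 1723, chr16:72008744-72025417, plus strand) had a mean of 9.51 FPKM, close to that of AIFM2 per length. With erastin, its FPKM were 9.96 and 9.30 in siDCAF8+siLSH, 10.1 and 9.89 in oeWDR76, 10.6 and 10.8 in siDCAF8, and 7.71 and 8.04 in siNS. Without erastin, they were 8.24 and 9.21 in siDCAF8+siLSH, 10.9 and 10.7 in oeWDR76, 12.3 and 10.2 in siDCAF8, and 7.02 and 7.09 in siNS. The siNS libraries were the lowest in both conditions, and no library of another genotype overlapped them within a condition. The 3 highest groups by mean, siDCAF8, oeWDR76 and siDCAF8/Erastin, overlapped, as did the next 2, oeWDR76/Erastin and siDCAF8+siLSH/Erastin, and siDCAF8+siLSH, siNS/Erastin and siNS followed, each apart from the next. The span of group means was 0.60 on the log2 scale.

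GCH1 (gene 2643, chr14:54842005-54902824, minus strand) was the lowest of the 5, with a mean of 4.43 FPKM. With erastin, its FPKM were 3.60 and 3.42 in siDCAF8+siLSH, 4.95 and 4.87 in oeWDR76, 3.92 and 3.13 in siDCAF8, and 5.62 and 5.42 in siNS. Without erastin, they were 3.33 and 4.44 in siDCAF8+siLSH, 5.01 and 5.90 in oeWDR76, 3.95 and 3.82 in siDCAF8, and 4.86 and 4.70 in siNS. All 8 libraries with a DCAF8 knockdown lay below all 8 others. In the order of means, siNS/Erastin, oeWDR76 and oeWDR76/Erastin led, none apart from the next beyond the larger SD, siNS followed, and the 4 knockdown groups came last, none apart from the next beyond the larger SD. The 2 untreated double-knockdown libraries lay far apart, at 3.33 and 4.44 FPKM. The span of group means was 0.53 on the log2 scale.

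COQ2 (gene 27235, chr4:83263824-83284914, minus strand) had a mean of 13.0 FPKM and the widest span, 1.28 on the log2 scale. With erastin, its FPKM were 12.2 and 10.7 in siDCAF8+siLSH, 18.0 and 21.0 in oeWDR76, 10.7 and 10.0 in siDCAF8, and 7.05 and 7.99 in siNS. Without erastin, they were 13.0 and 13.7 in siDCAF8+siLSH, 19.3 and 20.1 in oeWDR76, 10.5 and 10.6 in siDCAF8, and 11.9 and 12.2 in siNS. The 4 oeWDR76 libraries were the highest, with and without erastin alike, and the 2 siNS/Erastin libraries were the lowest, below every other library. Between them, in falling order of means, came siDCAF8+siLSH, siNS, siDCAF8+siLSH/Erastin, siDCAF8 and siDCAF8/Erastin, and from siNS down to siDCAF8/Erastin each was within the larger SD of the next.

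**Figure D1:**
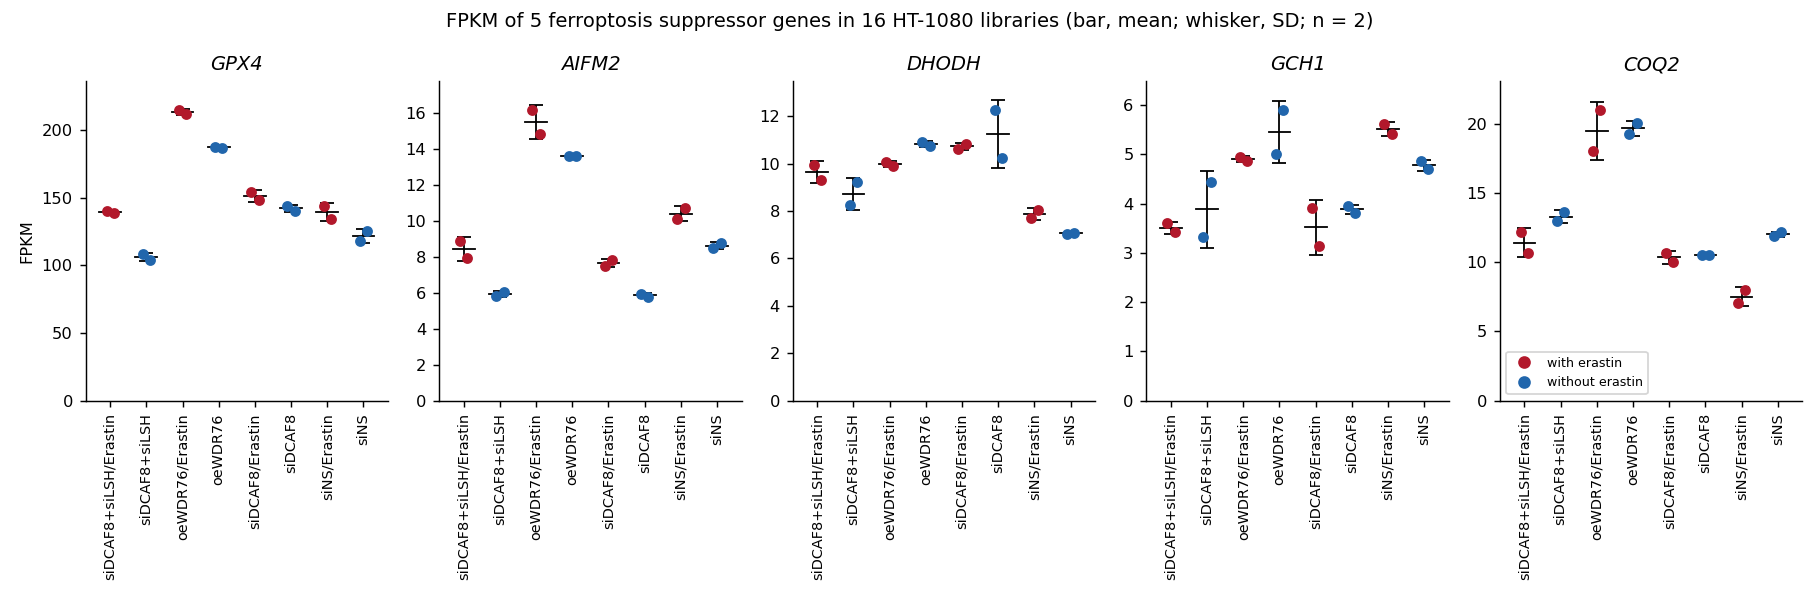
FPKM of each gene in the 16 libraries, by group, with erastin in red and without it in blue; points are libraries, the bar is the mean and the whisker the SD (n = 2). For COQ2 the siNS/Erastin libraries (7.05 and 7.99 FPKM) lie below all others, and for GPX4, AIFM2 and COQ2 the 4 oeWDR76 libraries lie above all others.

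Erastin lowered COQ2 and raised GPX4 and AIFM2 in control cells. COQ2 averaged 7.52 ± 0.665 FPKM in siNS/Erastin and 12.0 ± 0.191 FPKM in siNS, a 1.53-fold lower level (log2 -0.61, SE 0.08, adjusted p = 2.23e-05). Log2 differences and folds were computed on log2(FPKM + 1), which understates the change of low genes, and p-values are from limma with Benjamini-Hochberg adjustment over 11260 genes. A gene is said to have risen or fallen where its adjusted p was under 0.05. GPX4 was 1.14-fold higher, at 139 ± 6.74 FPKM in siNS/Erastin and 122 ± 5.35 FPKM in siNS (adjusted p = 0.00723), and AIFM2 was 1.18-fold higher, at 10.4 ± 0.417 FPKM and 8.62 ± 0.184 FPKM (adjusted p = 0.0103). Thus 3 of the 5 genes passed, where 37.5% of all tested genes did. DHODH (log2 0.14, adjusted p = 0.164) and GCH1 (log2 0.17, adjusted p = 0.203) did not pass. Their erastin libraries lay above the untreated ones, but with 2 libraries a group this can also happen without a difference. The share of all genes with such an order was not counted, so it is a description here and below. The calls of GPX4 and AIFM2 depended on single libraries, although their log2 differences stayed between 0.14 and 0.24 for GPX4 and between 0.21 and 0.28 for AIFM2 when each library was left out. Without siNS replicate 1 the adjusted p was 0.0879 for GPX4 and 0.0653 for AIFM2, without siNS/Erastin replicate 1 it was 0.0920 for GPX4, and without siNS/Erastin replicate 2 it was 0.0787 for AIFM2. With the GC and length trend removed, the GPX4 difference was 0.30 on the log2 scale in place of 0.19 (adjusted p = 4.37e-05).

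In siDCAF8+siLSH cells, erastin raised GPX4 and AIFM2 and no other of the 5. GPX4 averaged 139.7 ± 0.955 FPKM with erastin and 106 ± 3.03 FPKM without (1.32-fold, log2 0.40, SE 0.05, adjusted p = 5.43e-05). AIFM2 averaged 8.42 ± 0.658 FPKM with erastin and 5.92 ± 0.177 FPKM without (1.36-fold, log2 0.44, SE 0.07, adjusted p = 0.000266). Of all tested genes, 20.2% passed here, against 2 of these 5. COQ2 stood 0.21 lower on the log2 scale, with libraries that did not overlap, and missed the threshold (adjusted p = 0.0780, 95% interval -0.38 to -0.04). Without siDCAF8+siLSH/Erastin replicate 1 its adjusted p was 0.0499.

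In siDCAF8 cells AIFM2 alone passed, as 1 of the 5 beside 40.9% of all tested genes. It averaged 7.65 ± 0.226 FPKM with erastin and 5.85 ± 0.141 FPKM without (1.26-fold, log2 0.34, SE 0.07, adjusted p = 0.00107). GPX4 differed by 0.09 on the log2 scale (95% interval -0.02 to 0.19, adjusted p = 0.185) and COQ2 by -0.02 (interval -0.19 to 0.14), with overlapping COQ2 libraries. After removal of the GC and length trend the GPX4 difference was 0.25 and passed (adjusted p = 0.000272).

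In oeWDR76 cells none of the 5 passed in limma, beside 1.45% of all tested genes (163 genes). At an unadjusted p under 0.05, 2 of the 5 and 1527 of all genes differed. The 2 were GPX4, at 213 ± 2.04 FPKM with erastin and 187 ± 0.537 FPKM without (log2 0.19, adjusted p = 0.0888), and AIFM2, at 15.5 ± 0.940 and 13.6 ± 0.00707 FPKM (log2 0.18, adjusted p = 0.256). For both, the erastin libraries lay above the untreated ones. The GPX4 difference was as large as in siNS (0.19), and it passed with the GC and length trend removed (adjusted p = 0.0269) and in a fit of the oeWDR76 groups alone (adjusted p = 0.0496). COQ2 libraries overlapped, at 19.5 ± 2.10 FPKM with erastin and 19.7 ± 0.537 FPKM without (95% interval of the log2 difference -0.18 to 0.15).

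**Figure D2:**
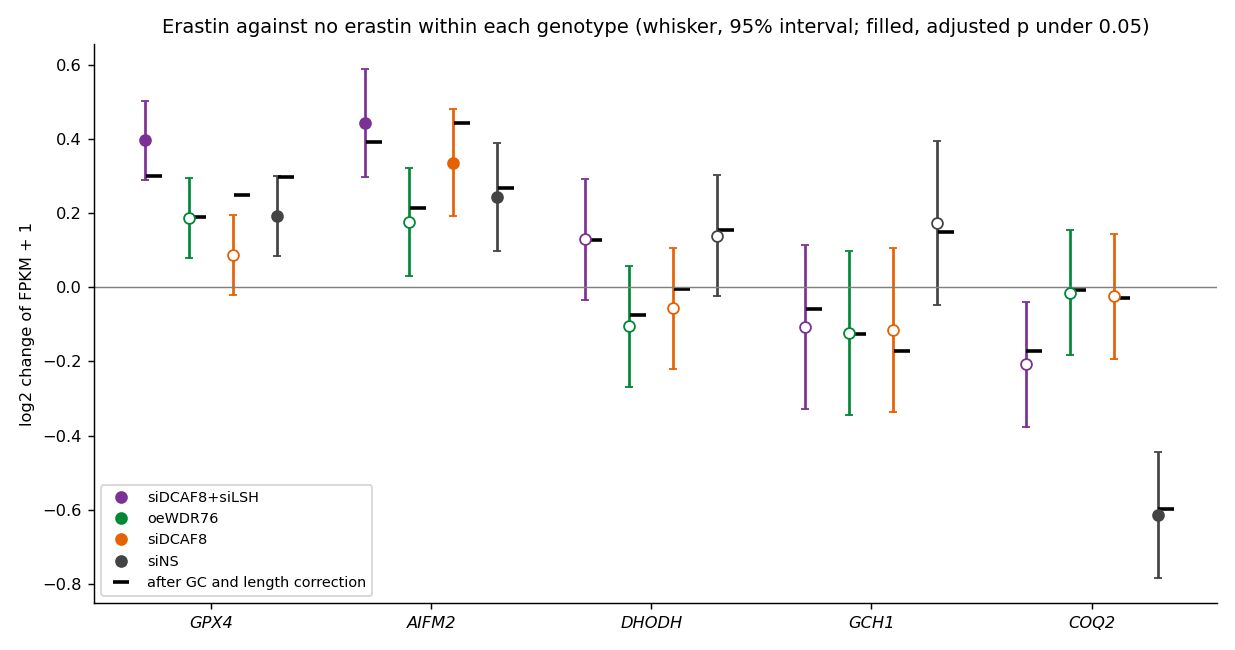
Log2 difference, erastin minus no erastin, for each gene in each genotype; whiskers are 95% intervals, filled points passed the adjusted p of 0.05, and black dashes are the values after GC and length correction. COQ2 is at -0.61 in siNS and between -0.21 and -0.02 in the other genotypes, and AIFM2 is above 0 in all 4.

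The COQ2 response to erastin differed between genotypes by a test of the difference itself. Relative to the response in siNS, the response was higher by 0.41 in siDCAF8+siLSH (adjusted p = 0.0153), by 0.60 in oeWDR76 (SE 0.11, adjusted p = 0.00270) and by 0.59 in siDCAF8 (SE 0.11, adjusted p = 0.00196), all on the log2 scale. These 3 comparisons share the siNS libraries, so they are not independent of each other. COQ2 was the only one of the 5 to pass in siDCAF8 and in oeWDR76, where 20.8% and 14.1% of all tested genes passed. In siDCAF8+siLSH against siNS, GPX4 passed too (0.20, adjusted p = 0.0482), so 2 of 5 did, beside 24.8% of all genes. The COQ2 difference for siDCAF8+siLSH lost its call, at adjusted p of 0.0734, 0.0660 and 0.0535, when siDCAF8+siLSH/Erastin replicate 1, siNS/Erastin replicate 1 or siNS replicate 2 was left out.

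The GPX4 response was 0.31 higher in siDCAF8+siLSH than in siDCAF8 on the log2 scale (adjusted p = 0.00915), the 1 of the 5 to pass there beside 23.5% of all tested genes. GC content moved with both GPX4 differences. GPX4 transcripts are 63.7% G and C, in the highest of 10 equal classes of tested genes by GC content, and the median response difference of all genes in that class was 0.32 against siDCAF8 and 0.25 against siNS. With the GC and length trend removed, the GPX4 differences were 0.05 (adjusted p = 0.672) and 0.00 (adjusted p = 0.976), while the COQ2 differences against siNS were 0.43, 0.59 and 0.57 in siDCAF8+siLSH, oeWDR76 and siDCAF8. The GPX4 difference against siNS also lost its call without any 1 of 13 libraries (adjusted p 0.0516 to 0.193), and kept it only without replicate 1 of siDCAF8+siLSH, siNS/Erastin or siNS. AIFM2, DHODH and GCH1 passed in none of the 4 comparisons of responses. With siDCAF8 replicate 2 left out, DHODH passed for siDCAF8 against siNS (-0.32, adjusted p = 0.0470) and for siDCAF8+siLSH against siDCAF8 (0.31, adjusted p = 0.0445), and with siDCAF8+siLSH replicate 1 left out GCH1 passed for siDCAF8+siLSH against siNS (-0.44, adjusted p = 0.0321). For AIFM2 the intervals ran from -0.0047 to 0.40 (siDCAF8+siLSH against siNS), -0.27 to 0.14 (oeWDR76 against siNS) and -0.11 to 0.30 (siDCAF8 against siNS).

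WDR76 overexpression went with higher GPX4, AIFM2, DHODH and COQ2, both with and without erastin. Under erastin, COQ2 averaged 19.5 ± 2.10 FPKM in oeWDR76 and 7.52 ± 0.665 FPKM in siNS, 2.41-fold higher (log2 1.27, SE 0.08, adjusted p = 3.37e-10), and without erastin it averaged 19.7 ± 0.537 and 12.0 ± 0.191 FPKM, 1.59-fold higher (log2 0.67, adjusted p = 9.82e-07). AIFM2 was 1.45-fold higher under erastin (15.5 ± 0.940 and 10.4 ± 0.417 FPKM, adjusted p = 2.03e-06) and 1.52-fold higher without (13.6 ± 0.00707 and 8.62 ± 0.184 FPKM, adjusted p = 5.67e-07). DHODH was 1.24-fold higher under erastin (9.99 ± 0.141 and 7.88 ± 0.233 FPKM, adjusted p = 0.00161) and 1.47-fold higher without (10.8 ± 0.127 and 7.06 ± 0.0495 FPKM, adjusted p = 5.68e-06). GPX4 was 1.53-fold higher in both conditions (log2 0.61 under erastin, adjusted p = 1.01e-08, and 0.62 without, adjusted p = 1.09e-08). GCH1 did not pass in either condition (log2 -0.14, adjusted p = 0.227, under erastin, and 0.16, adjusted p = 0.187, without), although under erastin it passed with median-ratio scaling (-0.24, adjusted p = 0.04999). The 4 of 5 genes that passed stand beside 76.2% of all tested genes under erastin and 73.6% without, and all 4 were higher, where 45.2% and 41.6% of all tested genes were called higher. The median log2 difference of all tested genes was itself 0.11 under erastin and 0.07 without. Total FPKM was also higher, at 495857 to 503867 in the oeWDR76 libraries and 436290 to 455662 in the other 12.

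The GC trend of the oeWDR76 libraries ran along with part of these differences. Over the 10 GC classes, the median log2 difference of oeWDR76 from siNS ran from -0.18 in the lowest class to 0.55 in the highest under erastin, and from -0.24 to 0.43 without. With the trend removed, GPX4 differed by 0.03 under erastin (adjusted p = 0.465) and 0.14 without (adjusted p = 0.00516). Quantile normalization gave 0.32 and 0.35 for GPX4. COQ2 lies near the middle of the GC range at 48.2%, and kept 1.08 and 0.49 after the correction. AIFM2 (56.1% GC) kept 0.41 and 0.47, and DHODH (51.6% GC) 0.17 (adjusted p = 0.0412) and 0.40. DHODH under erastin was 0.20 with median-ratio scaling (adjusted p = 0.0280). A preparation batch that held the oeWDR76 libraries alone cannot be told apart from the genotype.

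**Figure D3:**
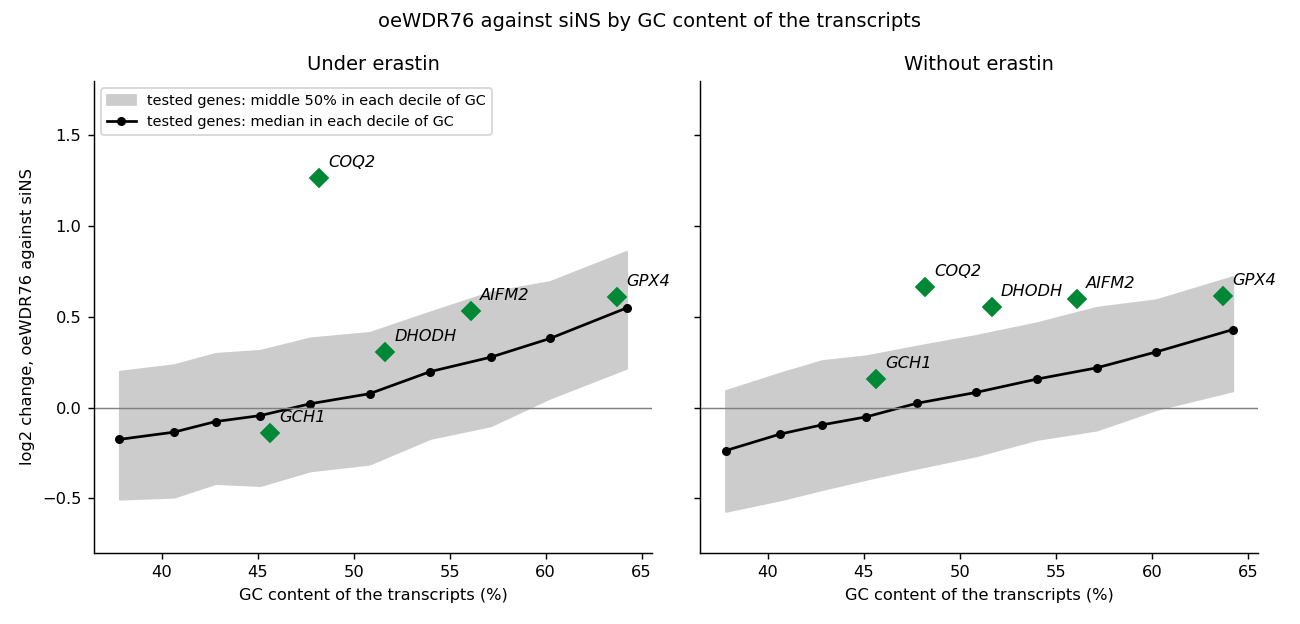
Log2 difference of oeWDR76 from siNS against the GC content of the transcripts (%), under erastin and without it; the line and points are the median of the tested genes in each of 10 classes by GC content, the grey band is the middle 50% of them, and diamonds are the 5 genes. GPX4 (0.61 and 0.62) lies within the band in both panels, while COQ2 lies above the band, at 1.27 under erastin and 0.67 without it.

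The DCAF8 knockdown went with lower AIFM2 and higher DHODH RNA in both conditions. AIFM2 averaged 7.65 ± 0.226 FPKM in siDCAF8 and 10.4 ± 0.417 FPKM in siNS under erastin (1.32-fold lower, adjusted p = 7.86e-05), and 5.85 ± 0.141 and 8.62 ± 0.184 FPKM without it (1.40-fold lower, adjusted p = 1.11e-05). DHODH averaged 10.7 ± 0.141 FPKM in siDCAF8 and 7.88 ± 0.233 FPKM in siNS under erastin (1.32-fold higher, adjusted p = 0.000217), and 11.2 ± 1.44 and 7.06 ± 0.0495 FPKM without it (1.51-fold higher, adjusted p = 4.59e-06). Under erastin COQ2 was 1.33-fold higher (10.4 ± 0.460 and 7.52 ± 0.665 FPKM, adjusted p = 0.000225) and GCH1 1.45-fold lower (3.53 ± 0.559 and 5.52 ± 0.141 FPKM, adjusted p = 0.000279), which makes 4 of 5 genes beside 64.8% of all tested genes.

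Without erastin 3 of the 5 passed between siDCAF8 and siNS, beside 61.0% of all tested genes, and COQ2 and GCH1 were not among them. GPX4 averaged 142 ± 2.65 FPKM in siDCAF8 and 122 ± 5.35 FPKM in siNS (1.17-fold higher, adjusted p = 0.00116). GCH1 stood 0.24 lower on the log2 scale (adjusted p = 0.0540) and COQ2 0.17 lower (adjusted p = 0.0692), with libraries that did not overlap. GCH1 passed with the GC and length trend removed (-0.27, adjusted p = 0.0311), in a fit of the groups compared alone (adjusted p = 0.0217) and without any 1 of the siDCAF8/Erastin or siDCAF8+siLSH libraries (adjusted p 0.0270 to 0.0406), and COQ2 passed with quantile normalization (adjusted p = 0.0496). Under erastin GPX4 was 0.12 higher and just missed the threshold (adjusted p = 0.0517), and with the trend removed it was 0.23 higher (adjusted p = 0.000143). It also passed with quantile normalization (0.18, adjusted p = 0.00830), with no filter (adjusted p = 0.0440), and without siNS/Erastin replicate 1 (0.17, adjusted p = 0.0285) or either untreated siDCAF8+siLSH library (adjusted p = 0.0439 and 0.0438).

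With LSH targeted as well, AIFM2 and GCH1 were lower and DHODH and COQ2 higher than in siNS under erastin. AIFM2 was 1.21-fold lower (8.42 ± 0.658 FPKM in siDCAF8+siLSH and 10.4 ± 0.417 FPKM in siNS, adjusted p = 0.00194) and GCH1 1.45-fold lower (3.51 ± 0.127 and 5.52 ± 0.141 FPKM, adjusted p = 0.000278). DHODH was 1.20-fold higher (9.63 ± 0.467 and 7.88 ± 0.233 FPKM, adjusted p = 0.00702) and COQ2 1.46-fold higher (11.4 ± 1.06 and 7.52 ± 0.665 FPKM, adjusted p = 1.58e-05). GPX4 libraries overlapped (log2 0.00, 95% interval -0.10 to 0.11). That is 4 of 5 genes, beside 66.0% of all tested genes. DHODH lost its call without siDCAF8+siLSH/Erastin replicate 1 (adjusted p = 0.0646) and with median-ratio scaling (0.18, adjusted p = 0.0533).

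Without erastin, 4 of the 5 passed between siDCAF8+siLSH and siNS, beside 66.8% of all tested genes. AIFM2 was 1.39-fold lower (5.92 ± 0.177 and 8.62 ± 0.184 FPKM, adjusted p = 1.11e-05), DHODH 1.21-fold higher (8.73 ± 0.686 and 7.06 ± 0.0495 FPKM, adjusted p = 0.00532), GPX4 1.15-fold lower (106 ± 3.03 and 122 ± 5.35 FPKM, adjusted p = 0.00244) and GCH1 1.19-fold lower (3.89 ± 0.785 and 4.78 ± 0.113 FPKM, adjusted p = 0.0425). The last of these calls was fragile. The GCH1 difference was -0.09 without siDCAF8+siLSH replicate 1 (adjusted p = 0.503) and -0.42 without siDCAF8+siLSH replicate 2 (adjusted p = 0.00415), and its call was also lost without either siNS library (adjusted p = 0.144 and 0.0909), either oeWDR76/Erastin library (0.0506 each), without the filter on low values (0.0967) and with quantile normalization (0.0810). DHODH lost its call without siDCAF8+siLSH replicate 2 (adjusted p = 0.0713). The GPX4 difference was -0.03 with the GC and length trend removed (adjusted p = 0.527).

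**Figure D4:**
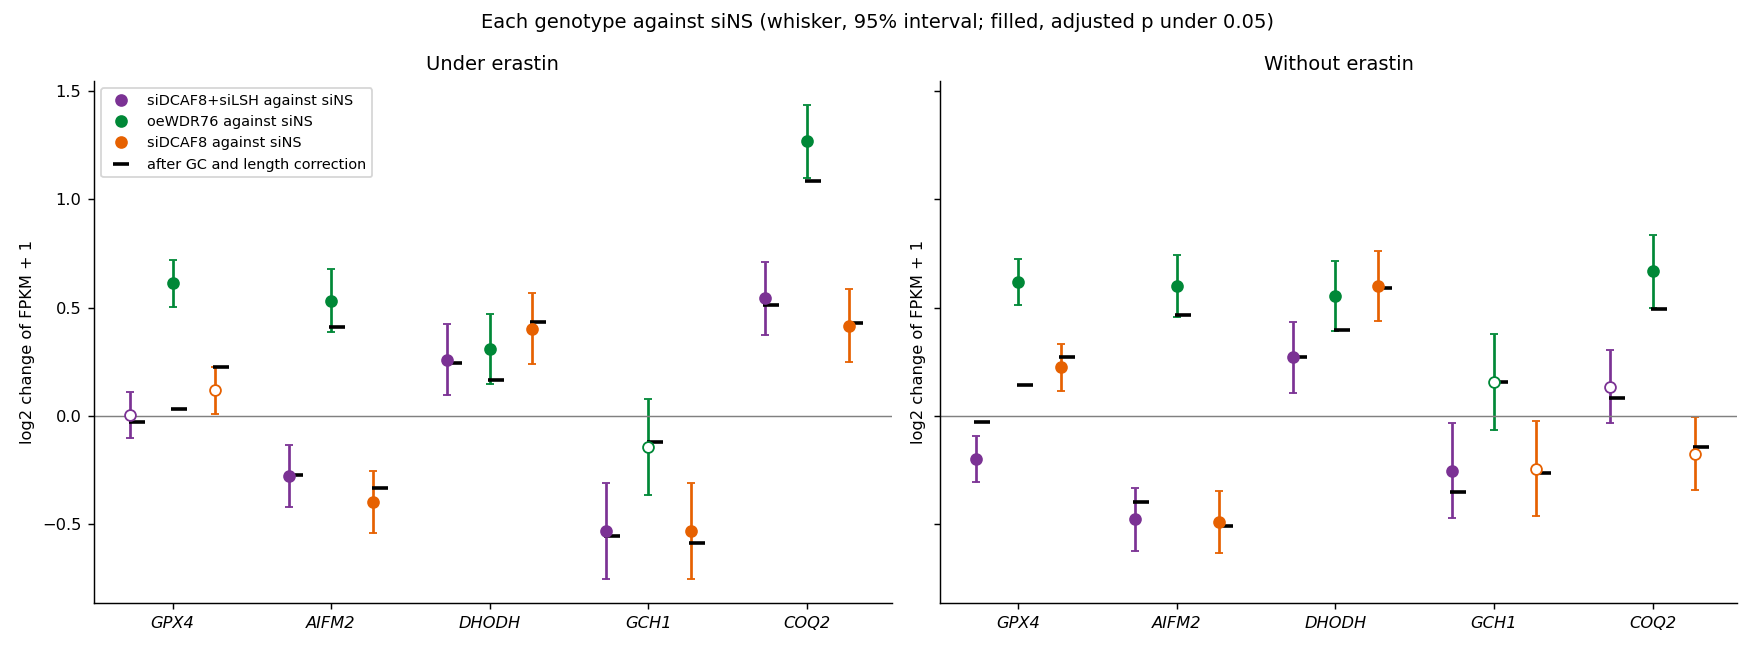
Log2 difference of each genotype from siNS for each gene, under erastin and without it; whiskers are 95% intervals, filled points passed the adjusted p of 0.05, and black dashes are the values after GC and length correction. In the 2 DCAF8 knockdowns AIFM2 lies below 0 and DHODH above 0 in both panels, and for GPX4 the dashes of oeWDR76 lie at 0.03 and 0.14.

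Between siDCAF8+siLSH and siDCAF8, the untreated cells differed in GPX4, DHODH and COQ2. GPX4 averaged 106 ± 3.03 FPKM in siDCAF8+siLSH and 142 ± 2.65 FPKM in siDCAF8 (1.34-fold lower, log2 -0.42, SE 0.05, adjusted p = 6.83e-06). DHODH was 1.26-fold lower (8.73 ± 0.686 and 11.2 ± 1.44 FPKM, adjusted p = 0.00224), and COQ2 1.24-fold higher (13.3 ± 0.488 and 10.5 ± 0.0212 FPKM, adjusted p = 0.00454). These are 3 of 5 genes, beside 48.2% of all tested genes, and AIFM2 and GCH1 libraries overlapped. Without siDCAF8 replicate 1 the DHODH difference was -0.21 in place of -0.33 and lost its call (adjusted p = 0.0590). DCAF8 RNA also differed between these groups, at 15.8 ± 2.23 FPKM in siDCAF8+siLSH and 12.0 ± 0.304 FPKM in siDCAF8 (adjusted p = 0.00156). WDR76 RNA did too, at 7.61 ± 0.113 and 5.16 ± 0.219 FPKM (adjusted p = 0.00162), so the contrast does not isolate LSH.

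Under erastin none of the 5 passed between siDCAF8+siLSH and siDCAF8 in limma, beside 49.7% of all tested genes. An unadjusted p under 0.05 was reached by 6288 of the 11260 tested genes and by 1 of the 5. That gene was GPX4 (139.7 ± 0.955 FPKM in siDCAF8+siLSH and 151 ± 4.64 FPKM in siDCAF8, log2 -0.11, adjusted p = 0.0749). It passed with median-ratio scaling (-0.18, adjusted p = 0.0108), with quantile normalization (-0.23, adjusted p = 0.00235) and with the GC and length trend removed (-0.25, adjusted p = 0.000107). DHODH passed with median-ratio scaling (-0.20, adjusted p = 0.0446) and with the trend removed (-0.19, adjusted p = 0.0306). Intervals of the log2 difference ran from -0.02 to 0.27 for AIFM2, -0.22 to 0.22 for GCH1 and -0.04 to 0.30 for COQ2.

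The list for the coenzyme Q pathway, which COQ2 feeds and which AIFM2 and DHODH use, held 12 other genes, all tested. They are called synthesis genes here, although COQ10A and COQ10B bind coenzyme Q rather than make it. In siNS 6 of the 12 fell with erastin and 0 rose, with a median log2 difference of -0.24 beside -0.03 for all tested genes, of which 22.4% were called lower. They included COQ8B, an atypical kinase of the synthesis complex (6.87 ± 0.332 FPKM with erastin and 10.2 ± 0.269 FPKM without, log2 -0.52, adjusted p = 3.75e-05), COQ5, a methyltransferase (21.4 ± 0.332 and 27.3 ± 0.163 FPKM, log2 -0.33, adjusted p = 0.00153), COQ4, which helps to organise the complex (6.70 ± 0.636 and 8.93 ± 0.219 FPKM, log2 -0.37, adjusted p = 0.00365), and COQ7, a hydroxylase (2.12 ± 0.339 and 3.21 ± 0.106 FPKM, log2 -0.43, adjusted p = 0.00478). COQ2, at -0.61, fell further than any of these 4. In the other genotypes the split was 2 up and 2 down in siDCAF8+siLSH, 0 and 0 in oeWDR76, and 1 up and 5 down in siDCAF8, where 20.2%, 1.45% and 40.9% of all tested genes were called.

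The difference between erastin responses passed for several of these 12 genes, each time with a higher response than in siNS. It passed for 4 genes in siDCAF8+siLSH, 2 in oeWDR76 and 2 in siDCAF8, and for 0 genes in the other direction, where 15.6%, 9.04% and 11.0% of all tested genes passed as higher. COQ8B and COQ5 passed in all 3. For COQ8B the difference was 0.86 in siDCAF8+siLSH (adjusted p = 3.54e-05), 0.41 in oeWDR76 (adjusted p = 0.0132) and 0.30 in siDCAF8 (adjusted p = 0.0435), and for COQ5 it was 0.32 (adjusted p = 0.0269), 0.38 (adjusted p = 0.0176) and 0.39 (adjusted p = 0.0120). In siDCAF8+siLSH, COQ8B rose with erastin (10.1 ± 0.382 and 7.79 ± 0.700 FPKM, log2 0.34, adjusted p = 0.00281). Under median-ratio scaling the siDCAF8+siLSH count was 4 higher and 1 lower, under quantile normalization 4 and 2, and with the GC and length trend removed 2 and 0. Against siNS under erastin, the other synthesis genes stood at 7 higher and 2 lower in siDCAF8+siLSH, 9 and 1 in oeWDR76 (6 and 3 with the GC and length trend removed, when COQ8B stood at -0.17 in place of 0.24) and 4 and 1 in siDCAF8, beside 66.0%, 76.2% and 64.8% of all tested genes called in either direction and 39.3%, 45.2% and 34.8% called higher. COQ4 was the leading gene in all 3 comparisons, at log2 1.07 (adjusted p = 2.43e-08), 1.01 (adjusted p = 1.85e-08, and 0.58 with the trend removed) and 0.73 (adjusted p = 1.92e-06).

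**Figure D5:**
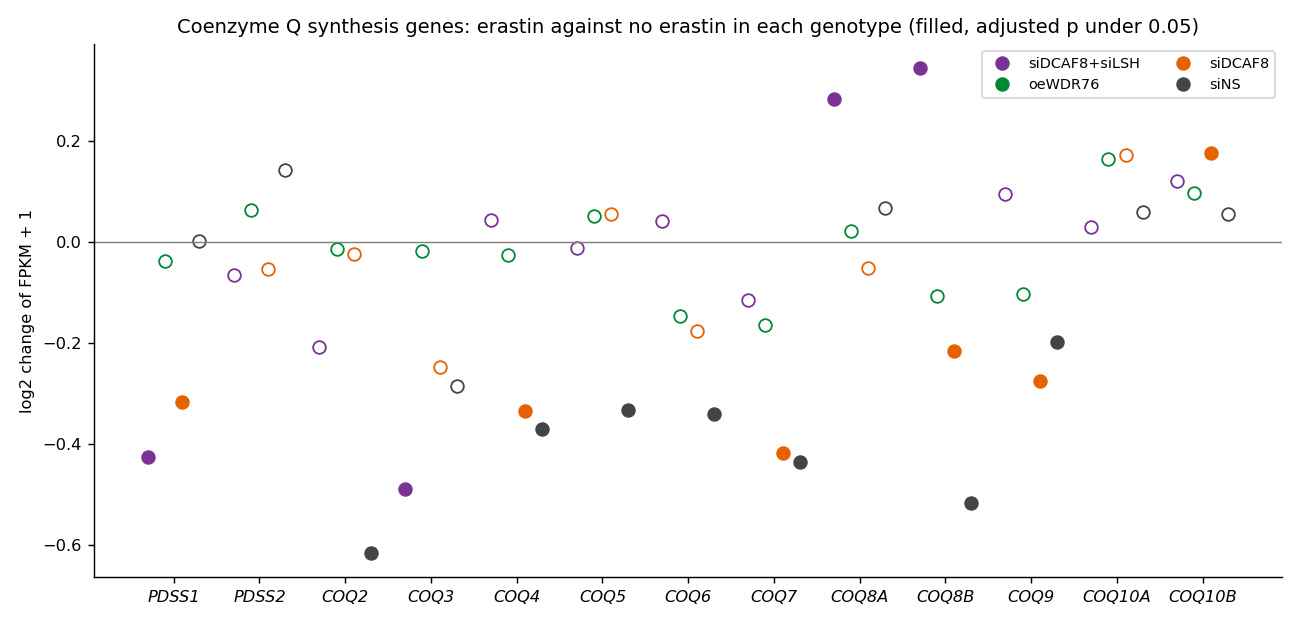
Log2 difference, erastin minus no erastin, for COQ2 and the 12 other coenzyme Q synthesis genes in each genotype; filled points passed the adjusted p of 0.05. In siNS 6 of the 12 other genes and COQ2 (-0.61) are filled below 0, and in oeWDR76 no point is filled.

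Around AIFM2, the list of 6 tested genes for its relatives, its myristoylation and the reduction of quinones held NQO1, a quinone reductase of the cytosol. NQO1 rose with erastin wherever AIFM2 did. It averaged 29.7 ± 0.537 FPKM with erastin and 19.1 ± 2.41 FPKM without in siDCAF8+siLSH (log2 0.62, adjusted p = 4.87e-05), 23.5 ± 0.799 and 15.8 ± 1.34 FPKM in siDCAF8 (0.54, adjusted p = 6.76e-05), and 33.5 ± 2.82 and 23.1 ± 0.120 FPKM in siNS (0.52, adjusted p = 9.95e-05). Like AIFM2, it was lower in siDCAF8 than in siNS, by 0.49 under erastin (adjusted p = 3.74e-05) and 0.52 without it (adjusted p = 2.55e-05). Over the list, erastin called 1 higher and 0 lower in siDCAF8+siLSH, 0 and 0 in oeWDR76, 2 and 1 in siDCAF8, and 1 and 1 in siNS, beside 20.2%, 1.45%, 40.9% and 37.5% of all tested genes called. VKORC1, the vitamin K epoxide reductase, fell with erastin in siDCAF8 (log2 -0.40, adjusted p = 5.08e-05, and -0.26 with the GC and length trend removed) and in siNS (-0.18, adjusted p = 0.0173), though in siNS this call was lost with the trend removed (-0.10, adjusted p = 0.0818). NMT2, an N-myristoyltransferase, was lower in siDCAF8+siLSH than in siDCAF8 in both conditions, at 15.5 ± 0.375 and 34.5 ± 4.55 FPKM under erastin (log2 -1.10, adjusted p = 3.86e-08) and 14.9 ± 1.22 and 28.7 ± 1.27 FPKM without (log2 -0.90, adjusted p = 4.73e-07).

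GPX4 is made as a selenoprotein, and 11 genes for selenocysteine incorporation and selenium supply were all tested. In siNS 5 of them fell with erastin and 0 rose, with a median log2 difference of -0.28 beside -0.03 for all genes, of which 22.4% were called lower, while GPX4 itself rose. The 4 with the lowest p were SARS1, the cytosolic seryl-tRNA synthetase (91.6 ± 4.14 FPKM with erastin and 129.5 ± 4.66 FPKM without, log2 -0.50, adjusted p = 2.92e-05), SEPHS1, a paralog of selenophosphate synthetase (log2 -0.46, adjusted p = 7.40e-05), the selenophosphate synthetase SEPHS2 (log2 -0.39, adjusted p = 0.000175) and TRNAU1AP, a protein bound to the selenocysteine tRNA (log2 -0.46, adjusted p = 0.000811). SARS1 moved the other way in the DCAF8 knockdowns. It rose by 0.34 in siDCAF8+siLSH (150.5 ± 12.7 and 118 ± 5.95 FPKM, adjusted p = 0.00171) and by 0.48 in siDCAF8 (168 ± 12.2 and 120.0 ± 1.12 FPKM, adjusted p = 4.54e-05). Its response differed from that in siNS by 0.84 in siDCAF8+siLSH (adjusted p = 2.58e-05), 0.32 in oeWDR76 (adjusted p = 0.0306) and 0.97 in siDCAF8 (adjusted p = 6.50e-06). Over the list, the split with erastin was 1 up and 1 down in siDCAF8+siLSH, 0 and 0 in oeWDR76, and 2 and 2 in siDCAF8, beside 20.2%, 1.45% and 40.9% of all tested genes called.

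Of the other 7 glutathione peroxidases, GPX1 and GPX8 were the 2 that could be tested, and neither was called higher with erastin in any genotype. GPX1, the abundant cytosolic peroxidase that is also a selenoprotein, fell with erastin in siNS (351 ± 16.7 and 414 ± 9.64 FPKM, log2 -0.24, adjusted p = 0.00335) and in siDCAF8 (301 ± 10.2 and 374 ± 15.6 FPKM, log2 -0.31, adjusted p = 0.000409). With the GC and length trend removed the GPX1 differences were -0.14 in siNS and -0.15 in siDCAF8. GPX8, a peroxidase of the endoplasmic reticulum without selenocysteine, fell in siNS (7.41 ± 1.11 and 9.73 ± 0.332 FPKM, log2 -0.36, adjusted p = 0.00442) and in siDCAF8+siLSH (7.54 ± 0.601 and 9.55 ± 0.198 FPKM, log2 -0.31, adjusted p = 0.0203), where the call was lost with the trend removed (adjusted p = 0.0531). In oeWDR76 against siNS without erastin, GPX1 was 0.25 higher (adjusted p = 0.000701), and with the GC and length trend removed it was 0.20 lower (-0.20, adjusted p = 0.00174), so its direction depends on that correction.

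Among the 14 other tested selenoproteins, thioredoxin reductase 1 (TXNRD1) stood out by its size. It averaged 180.5 ± 0.721 FPKM with erastin and 88.8 ± 10.7 FPKM without in siDCAF8+siLSH (log2 1.02, adjusted p = 2.16e-06), 183 ± 20.7 and 85.2 ± 2.64 FPKM in siDCAF8 (1.09, adjusted p = 4.00e-07), and 152 ± 21.2 and 75.6 ± 1.27 FPKM in siNS (0.99, adjusted p = 9.51e-07). In oeWDR76 it was not called, and its response there was 0.77 lower than in siNS (log2 -0.77, adjusted p = 0.00139). SELENOW, a small redox selenoprotein, fell with erastin in all 3 genotypes in which TXNRD1 rose, by 0.38 in siDCAF8+siLSH (adjusted p = 0.00286), 0.49 in siDCAF8 (adjusted p = 0.000150) and 0.30 in siNS (adjusted p = 0.00696). Over the list, erastin called 3 higher and 2 lower in siDCAF8+siLSH, 0 and 0 in oeWDR76, 2 and 3 in siDCAF8, and 2 and 1 in siNS, beside 20.2%, 1.45%, 40.9% and 37.5% of all tested genes called.

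The pyrimidine list joined DHODH with 10 other tested genes, among them the salvage kinases UCK1, UCK2 and UCKL1. More of these 10 were called higher than lower in each genotype against siNS. Without erastin the calls were 8 higher and 0 lower in siDCAF8+siLSH, 8 and 1 in oeWDR76, and 6 and 1 in siDCAF8, and under erastin they were 9 and 1, 7 and 1, and 6 and 1. Of all tested genes, 35.9%, 41.6% and 31.0% were called higher without erastin (66.8%, 73.6% and 61.0% called in either direction), and 39.3%, 45.2% and 34.8% under it. The median log2 difference without erastin was 0.38, 0.52 and 0.36, beside 0.03, 0.07 and 0.01 for all tested genes. UMPS, which follows DHODH in the pathway, averaged 16.5 ± 1.63 FPKM in siDCAF8+siLSH, 12.0 ± 0.325 in oeWDR76 and 12.2 ± 0.00707 in siDCAF8, against 5.71 ± 0.00707 FPKM in siNS without erastin (log2 1.38, 0.95 and 0.98, adjusted p = 9.99e-11, 3.32e-09 and 7.83e-09). CAD, which carries the first steps, was 0.61 higher in siDCAF8+siLSH (adjusted p = 1.86e-06) and 0.68 higher in siDCAF8 (adjusted p = 7.72e-07) on the log2 scale. Erastin lowered TYMS, thymidylate synthase, in siDCAF8+siLSH (log2 -0.49, adjusted p = 1.07e-05), siDCAF8 (-0.52, adjusted p = 2.15e-06) and siNS (-0.36, adjusted p = 6.11e-05), while DHODH passed in none of the erastin comparisons. DTYMK, thymidylate kinase, fell with erastin in the same 3 genotypes, by 0.39 (adjusted p = 0.000241), 0.86 (adjusted p = 6.89e-08) and 0.78 (adjusted p = 9.64e-08).

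In the tetrahydrobiopterin pathway, 5 genes beside GCH1 could be tested, and GCHFR, the feedback regulator of GCH1, lay just under the filter at 0.980 FPKM. SPR, sepiapterin reductase, rose with erastin in siNS (31.6 ± 1.22 and 24.7 ± 0.318 FPKM, log2 0.34, adjusted p = 0.000438), and its response was lower in siDCAF8+siLSH by 0.33 (log2 -0.33, adjusted p = 0.0129), in oeWDR76 by 0.34 (-0.34, adjusted p = 0.0171) and in siDCAF8 by 0.52 (-0.52, adjusted p = 0.000733). Over the list, the calls against siNS without erastin were 3 higher and 0 lower in siDCAF8+siLSH, 4 and 0 in oeWDR76, and 2 and 0 in siDCAF8. Of all tested genes, 35.9%, 41.6% and 31.0% were called higher there, and 66.8%, 73.6% and 61.0% in either direction. GCH1 was called higher than in siNS in none of these comparisons. In oeWDR76 under erastin SPR was 0.29 higher than in siNS, and -0.16 with the GC and length trend removed (adjusted p = 0.0160), so its direction there depends on the correction.

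The genes whose pattern over the 16 libraries was nearest to each of the 5 were found by the root-mean-square difference of log2(FPKM + 1) after each gene was centred on its own mean. For GPX4 they were ZNF579 (0.077), SNAPC2 (0.085) and YDJC (0.089), beside a root-mean-square of 0.30 for GPX4 about its own mean. These 3 genes have transcripts of 64.4% to 67.6% GC, close to the 63.7% of GPX4. For AIFM2 the nearest were TPRA1 (0.12), XKR8 (0.14) and LCMT1 (0.14), beside 0.43. For DHODH they were TRIM35 (0.076), INTS3 (0.095) and PYGO2 (0.096), beside 0.21. For GCH1 they included DOLPP1 (0.11) and TMEM108 (0.12), beside 0.22, and for COQ2 SYCE1, MCM7 and CDK16 (0.12, 0.12 and 0.13), beside 0.41. Among the 5 genes themselves the nearest pairs were GPX4 with AIFM2 and GPX4 with DHODH, both at 0.26. That is below the 0.30 of GPX4 and the 0.43 of AIFM2 about their own means, but above the 0.21 of DHODH. The genes above were picked as the nearest of all tested genes, so their smaller distances are no result about the 5. The 16 libraries share 8 group means and the GC trend, so these distances are a description.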

How the data were processed

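RNA of 16 HT-1080 libraries was sequenced on BGISEQ-500 after Smart-Seq v4 amplification, per the labels' protocols. The authors deposited FPKM values per gene, rounded to 2 decimals, and StringTie and GRCh38 are named in the submitters' processing notes. No aligner, version, annotation or strand setting was given in the sources used here, and the depth behind each value is unknown, so precision rests on the spread between 2 libraries a group. Groups were taken from the labels, and with erastin named in every label's treatment text, the group names decided the treatment. Of 24107 entries, 17552 had values, and the 11260 genes that averaged 1 FPKM or more over all libraries were tested.

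Log2(FPKM + 1) was fitted with 8 group means in limma 3.58.1 (R 4.3.3, trended empirical Bayes, 8 residual degrees of freedom). The 16 contrasts were 4 erastin effects, 8 genotype differences and 4 differences between erastin responses. P-values were adjusted by Benjamini-Hochberg over all tested genes in each contrast, with a threshold of 0.05. Gene numbers of 17506 genes matched RefSeq. For the GC and length correction, each library's deviation from the gene means was regressed on natural splines of transcript GC content and log2 length (98.5% of tested genes had both), and the fitted part was removed. Promoters were read from RefSeq. Tables and figures used Python 3.11.15, pandas 2.3.3, numpy 2.4.6 and matplotlib 3.10.9.

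The 5 genes and the 7 pathway lists were chosen with earlier results of these data known. Genes named beside the 5 were the 3 targeted genes, up to 4 called genes with the lowest p per list and comparison, and the 3 genes nearest in pattern, of which a few are not reported here. Alternatives were a pseudocount of 0.1, no filter, a mean of at least 5 FPKM, median-ratio scaling, quantile normalization, a replicate block, only the groups compared, the GC and length correction, and leaving out each library. The correction with the block was added after seeing the data.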

Additional observations from a re-analysis of the deposited data

Results flagged for a closer look

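The response of COQ2 to erastin differed from that in siNS in the 3 other genotypes, by a test of the difference of the 2 responses (limma). On the log2 scale the COQ2 response was 0.41 higher in siDCAF8+siLSH, 0.60 higher in oeWDR76 and 0.59 higher in siDCAF8 (adjusted p = 0.0153, 0.00270 and 0.00196). All 3 share the siNS libraries, in which COQ2 stood at 7.05 and 7.99 FPKM with erastin and 11.9 and 12.2 FPKM without. The response of GPX4 differed between genotypes as well, being 0.20 higher in siDCAF8+siLSH than in siNS and 0.31 higher in siDCAF8+siLSH than in siDCAF8 (adjusted p = 0.0482 and 0.00915). Both GPX4 differences lost their call with the GC and length trend removed.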

How the results depend on the processing

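Of 80 tests (5 genes in 16 comparisons), 37 were called, 26 of these under every alternative, and 31 under every alternative other than leaving out a library. GCH1 averaged 4.43 FPKM and so had no test under the filter of at least 5 FPKM. Its calls were counted over the other alternatives only. The share of all tested genes called ran from 1.45% (erastin in oeWDR76) to 76.2% (oeWDR76 against siNS under erastin) over the comparisons. The 37 calls are therefore not read as a trait of the 5 genes. No called test changed sign. The number of the 5 genes called was 2 in place of 1 for erastin in siDCAF8 under quantile normalization and under the GC and length correction, 1 in place of 0 for erastin in oeWDR76 with only the groups compared and under that correction, and, for siDCAF8+siLSH against siDCAF8 under erastin, 2 in place of 0 under median-ratio scaling and under the correction and 1 under quantile normalization. For the response of siDCAF8+siLSH against siNS it was 1 in place of 2 under median-ratio scaling, quantile normalization, only the groups compared and the correction, and against siDCAF8 it was 0 in place of 1 under the correction. The replicate block added to the correction gave the same numbers. Leaving out each library gave 1 to 3 for erastin in siNS, 1 to 2 for the response of siDCAF8 against siNS, 0 to 3 for that of siDCAF8+siLSH against siNS and 1 to 2 against siDCAF8. Over all tested genes, calls for erastin in siDCAF8 were 4705 (quantile normalization) and 3828 (correction), beside 4600 in the main fit. In oeWDR76 they were 270 (only the groups compared) and 195 (correction), beside 163. For siDCAF8+siLSH against siDCAF8 under erastin they were 5516, 5809 and 5582 in the order above, beside 5600. For the response of siDCAF8+siLSH against siNS they were 2806, 2882, 2350 and 2687, beside 2790.

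Sign changes were seen only in uncalled values, some of which moved well away from 0 with a library left out. For siDCAF8+siLSH against siDCAF8, AIFM2 without erastin was -0.011 with median-ratio scaling, GCH1 under erastin was -0.049 with that scaling and -0.063 with quantile normalization, the GCH1 response was -0.017 and -0.040, and the AIFM2 response was -0.053 under the correction, with the block or without it. GPX4 in siDCAF8+siLSH against siNS under erastin was -0.082, -0.050 and -0.027 under median-ratio scaling, quantile normalization and the correction (also -0.027 with the block). Leaving out each library, erastin effects ran from -0.271 to 0.058 (GCH1 in siDCAF8+siLSH), -0.120 to 0.089 (COQ2 in oeWDR76), -0.177 to 0.063 (DHODH in siDCAF8), -0.242 to 0.010 (GCH1 in siDCAF8) and -0.066 to 0.017 (COQ2 in siDCAF8). Responses ran from -0.082 to 0.062 (DHODH, siDCAF8+siLSH against siNS), -0.155 to 0.174 (GCH1, siDCAF8+siLSH against siDCAF8) and -0.055 to 0.043 (GPX4, oeWDR76 against siNS). Genotype differences ran from -0.044 to 0.054 (GPX4, siDCAF8+siLSH against siNS under erastin) and, for siDCAF8+siLSH against siDCAF8, from -0.126 to 0.127 (GCH1 under erastin), -0.174 to 0.155 (GCH1 without) and -0.013 to 0.040 (AIFM2 without). The cause of these changes was not tested.

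Over all genes, the 163 calls for erastin in oeWDR76 were 84 with no filter and 270 with only the groups compared, and 27 to 178 with a library left out. The 2642 calls for the response of siDCAF8+siLSH against siDCAF8 were 1755, 1696, 281 with the correction, 235 with the correction and block, and 1008 to 3003 with a library left out. With a library left out, calls were 1247 to 2285 for erastin in siDCAF8+siLSH (2270 with all), 3021 to 4760 in siDCAF8 (4600) and 2796 to 4385 in siNS (4223), and for responses against siNS 1761 to 2807 in siDCAF8+siLSH (2790), 906 to 1738 in oeWDR76 (1593) and 1315 to 2494 in siDCAF8 (2341). Deviations of same-numbered libraries from their group means correlated from -0.21 to 0.39 between groups (median 0.02), over 0.1 in 7 of 28 pairs. Both signs occurred, and whether the replicate number marks a shared deviation was not tested. With the replicate block alone, GPX4 in siDCAF8 against siNS under erastin passed (adjusted p = 0.0462). In oeWDR76 against siNS under erastin, the median of all tested genes was 0.109. Depth is unknown, so its limits were not measured.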
